A study of Mus musculus with 18 samples.

Results

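Hepatic microRNA (miRNA) signal was compared between the 75 and the 50 mg/kg/day groups of a benzo(a)pyrene (BaP) study, which is the top step of its dose range. The 10 arrays labelled 75 mg/kg (5) or 50 mg/kg (5) were taken from the 18 of the series, each from the liver of 1 animal. The mice were 25-week-old male Muta™Mouse of strain 40.6, transgenic for a lacZ reporter in which mutations can be scored. Both groups were given BaP in olive oil by gavage on 28 days and were killed 3 days after the last dose, so that they differed in dose alone as far as the labels say. Arrays of 3 vehicle animals and 5 animals at 25 mg/kg/day shared the estimate of the spread but did not enter the contrast. The 10 arrays lay on 3 slides, with 2 of each dose on slide 1, 2 of each on slide 2 and 1 of each on slide 3, and slide was a block in the model. Replicate numbers only name arrays.

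BaP is a polycyclic aromatic hydrocarbon that liver enzymes oxidise to a diol epoxide, which binds guanine in DNA. Damaged DNA stabilises the transcription factor p53, and the gene of miR-34a is among those that p53 activates. A miRNA guides the silencing complex to messenger RNAs through its seed, bases 2 to 8 of the mature strand, so miRNAs with the same seed are grouped into families. The miR-34 family acts on messages of the cell cycle and of cell survival. In a whole-liver extract, fewer cells of a type and less RNA per cell cannot be told apart.

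The mature sequences below, from RefSeq (GRCm38.p6), are those of the miRNAs on which the results turn, written 5′ to 3′ with the seed in capitals. miR-34a (array name matched to the 5p arm) lies at chr4:150068473-150068494 on the plus strand, in the gene Mir34a. It is shown with miR-34b-5p, which has the same seed and is encoded on chromosome 9 but was below the presence criterion at both doses. miR-34c was on the array too.
miR-34a: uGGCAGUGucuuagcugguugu
miR-34b-5p: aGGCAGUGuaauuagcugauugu

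Of the miRNAs with smaller differences, those named below for their rank and the close relatives that share their seeds are these.
miR-10a: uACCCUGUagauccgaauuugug
miR-107: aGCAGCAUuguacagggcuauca
miR-103: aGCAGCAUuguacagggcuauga
miR-27a: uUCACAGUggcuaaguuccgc
miR-27b: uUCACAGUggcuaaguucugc
miR-21: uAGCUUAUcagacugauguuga
miR-23a: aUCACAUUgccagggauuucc

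Of 566 mouse miRNA names on the array, 68 were detected in at least 1 of the 4 dose groups and were tested. Of these, 59 were matched to a RefSeq mature sequence, with 39 different seeds, and 29 names shared a seed with another. No spot was saturated. The median signal of an array, in scanner units without background subtraction, was 58.2 ± 9.67 (SD, n = 5) at 50 mg/kg/day and 54.3 ± 11.2 (SD, n = 5) at 75 mg/kg/day. Within the slides it was lower on 5 of 5 arrays at 75 mg/kg/day.

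miR-34a was higher in each animal at 75 mg/kg/day than in any animal at 50 mg/kg/day. Its normalised log2 signal at 50 mg/kg/day was 7.18 and 6.67 on slide 1, 6.92 and 6.93 on slide 2, and 6.90 on slide 3. At 75 mg/kg/day it was 7.89 and 8.03 on slide 1, 7.60 and 7.67 on slide 2, and 7.89 on slide 3. The groups did not overlap, since the lowest array at 75 mg/kg/day lay above the highest at 50 mg/kg/day. The means were 7.82 ± 0.18 and 6.92 ± 0.18 (SD, n = 5 each), a log2 change of 0.90 ± 0.14 (SE), or 1.86-fold (95% confidence interval 1.504 to 2.304). The change passed the test over all 68 names (limma, FDR-adjusted P = 0.0011). Within the slides the difference was 1.03, 0.71 and 0.99. The exact two-sided permutation P was 0.00794 over all splits of the 10 arrays into 5 and 5. It was 0.0278 over the 72 arrangements within slides, a value that miR-23a shared. Each is the smallest that the design allows.

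The array read miR-34a with 2 probes, each printed on 10 spots, and both were well above background on all 10 arrays. Probe A_54_P2499 had normalised log2 signals at 50 mg/kg/day of 7.48, 6.84, 7.37, 7.36 and 7.38, and at 75 mg/kg/day of 8.16, 8.32, 8.24, 8.31 and 8.56. Probe A_54_P2498 had 6.87, 6.50, 6.46, 6.49 and 6.43 at 50 mg/kg/day, and 7.61, 7.74, 6.96, 7.03 and 7.22 at 75 mg/kg/day. Neither probe had an array at 75 mg/kg/day below the highest array at 50 mg/kg/day. The log2 change was 1.03 ± 0.15 (SE, limma FDR-adjusted P = 0.000822, 2.05-fold) by A_54_P2499 and 0.76 ± 0.15 (SE, limma FDR-adjusted P = 0.00561, 1.69-fold) by A_54_P2498. These were the 2 probes of 109 (1.83%) that passed the test, with 4 of 109 (3.67%) at an unadjusted P under 0.05. The log2 ratio of A_54_P2499 to A_54_P2498 on the same array was 0.73 ± 0.25 (SD, n = 5) at 50 mg/kg/day and 1.01 ± 0.40 (SD, n = 5) at 75 mg/kg/day, a difference of 0.27 that did not pass an exact within-slide permutation test (two-sided P = 0.0833). The probes varied differently at 75 mg/kg/day, where A_54_P2498 was higher on both arrays of slide 1 than on the other 3 arrays and A_54_P2499 was not.

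**Figure D1:**
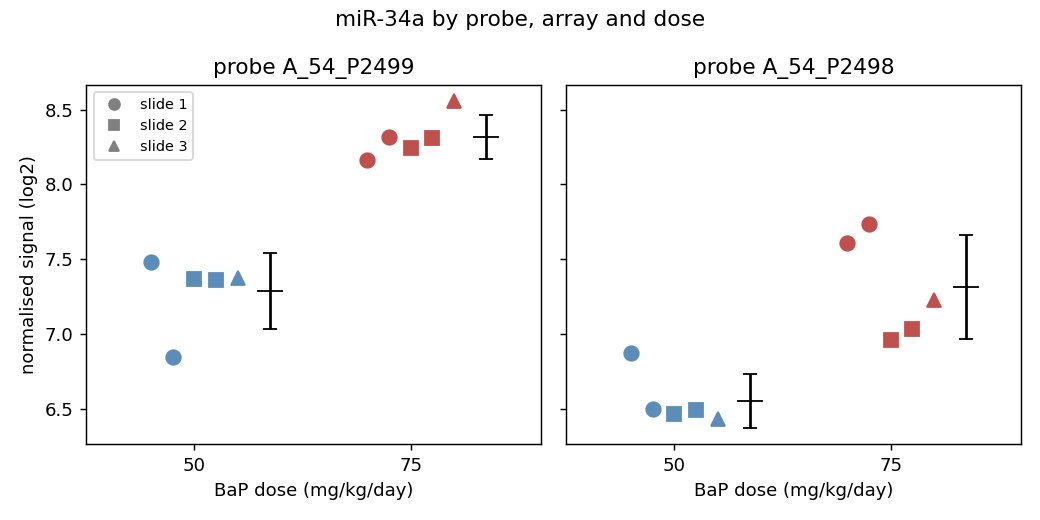
Normalised log2 signal (y axis) of the 2 miR-34a probes on each array at 50 and 75 mg/kg/day (x axis). Symbols give the slide and the black bar the mean ± SD of 5 arrays; in each panel all arrays at 75 mg/kg/day lie above all arrays at 50 mg/kg/day.

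The separation was present before normalisation. The scanner's median signal of the miR-34a probe A_54_P2499 was 123.25, 120.5, 212, 190.5 and 198 at 50 mg/kg/day, and 253, 293.5, 292, 311 and 434 at 75 mg/kg/day. Again the lowest value at the higher dose exceeded the highest at the lower dose. The size of the change varied with the signal used. The log2 change was 0.86 after normexp background correction with an offset of 50, and 1.40 in the scanner's background-subtracted processed signal. The processed signal was also scaled to the 75th percentile rather than normalised by cyclic loess. For that signal, effects of background and of normalisation cannot be told apart. In the scanner's background-subtracted total gene signal, unscaled, miR-34a was 76.7, 75.7, 127, 104 and 113 at 50 mg/kg/day and 226, 264, 188, 209 and 318 at 75 mg/kg/day. After scaling of the arrays to the 75th percentile of the names detected on all of them, the change was 2.76-fold (95% confidence interval 1.65 to 4.60), with a log2 change of 1.46 ± 0.34 (SE) that lay just outside the threshold in the model of all 18 arrays (limma FDR-adjusted P = 0.0565). With only the 10 arrays in the model, a setting chosen after seeing the data, the same 1.46 had an SE of 0.20 and a limma FDR-adjusted P of 0.00683.

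Position on the slide moved with dose. On each slide the arrays at 75 mg/kg/day lay in a higher column than those at 50 mg/kg/day, so within these 10 arrays dose and column cannot be told apart. The median local background was 38.9 ± 2.07 scanner units at 50 mg/kg/day and 33.9 ± 3.44 at 75 mg/kg/day (SD, n = 5 each), lower within the slide on 5 of 5 arrays at the higher dose (exact within-slide permutation P = 0.0278, the smallest possible). Over all 18 arrays it was between 36 and 41.5 in column 1 and between 30 and 33 in column 4. The log2 change of miR-34a was 1.16 ± 0.20 (SE, limma FDR-adjusted P = 0.00339) with the column as a covariate over the 18 arrays, and 1.03 ± 0.17 (SE, limma FDR-adjusted P = 0.00233) with the local background as a covariate.

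**Figure D2:**
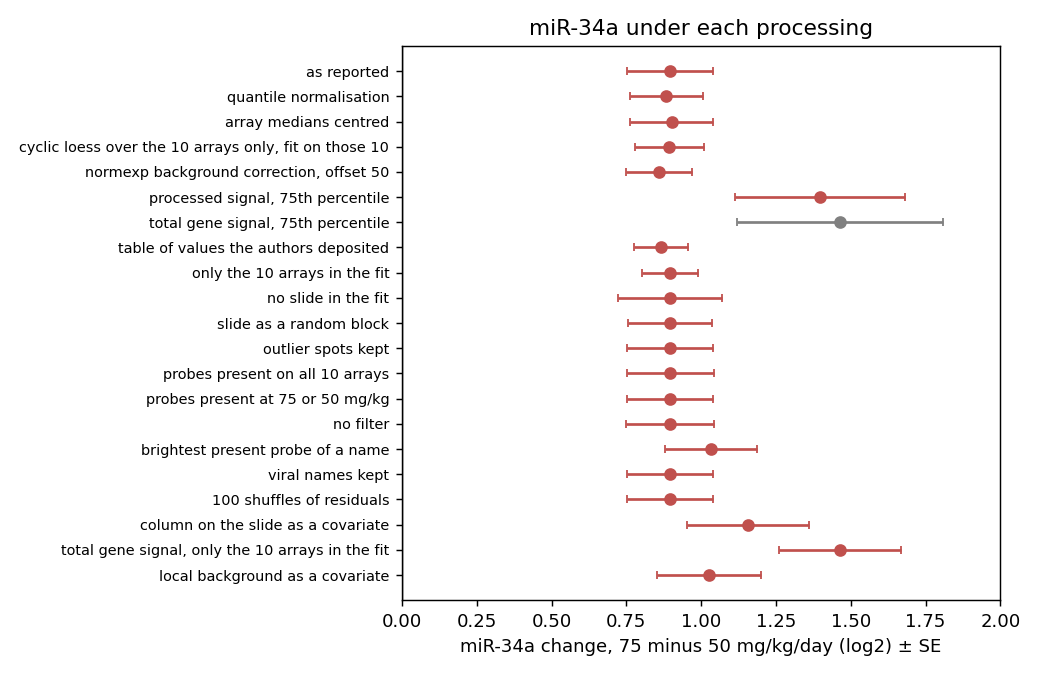
Log2 change of miR-34a from 50 to 75 mg/kg/day ± SE (x axis) under each processing (y axis). Red points had a limma FDR-adjusted P under 0.05 and the grey point, the total gene signal over 18 arrays, had 0.0565; all points lie above 0, between 0.86 and 1.46.

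miR-34a was the one miRNA of 68 (1.47%) that passed the test between the doses, and it also changed over 1.5-fold. The other 67 miRNAs lay between a log2 change of -0.18 (miR-451, of red blood cells) and 0.15 (miR-21, which is raised in injured tissue), all under 1.2-fold. In the background-subtracted processed and total gene signals, 64 and 58 of the 67 lay under 1.2-fold, and none of them passed the test. Over all 68, 22 were higher and 46 (67.6%) lower at 75 mg/kg/day, with a median of -0.02, but this balance depended on the scaling, with 34 of 68 lower after quantile normalisation (median -0.00036) and 19 of 68 lower in the total gene signal (median 0.06). In the signal without background subtraction, the 95% confidence interval lay within 1.2-fold either way for 61 of the 67 and within 1.5-fold for 66. The exceptions to the narrower bound were miR-21, miR-122, miR-193, miR-451, miR-709 and miR-1224, and the exception to the wider one was miR-451 (interval -0.69 to 0.34). The median SE of the 67 was 0.05. These bounds hold for that signal only. In the total gene signal the 67 changes ran from -0.63 (miR-144) to 0.50 (miR-28), with 65 under 1.5-fold.

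**Figure D3:**
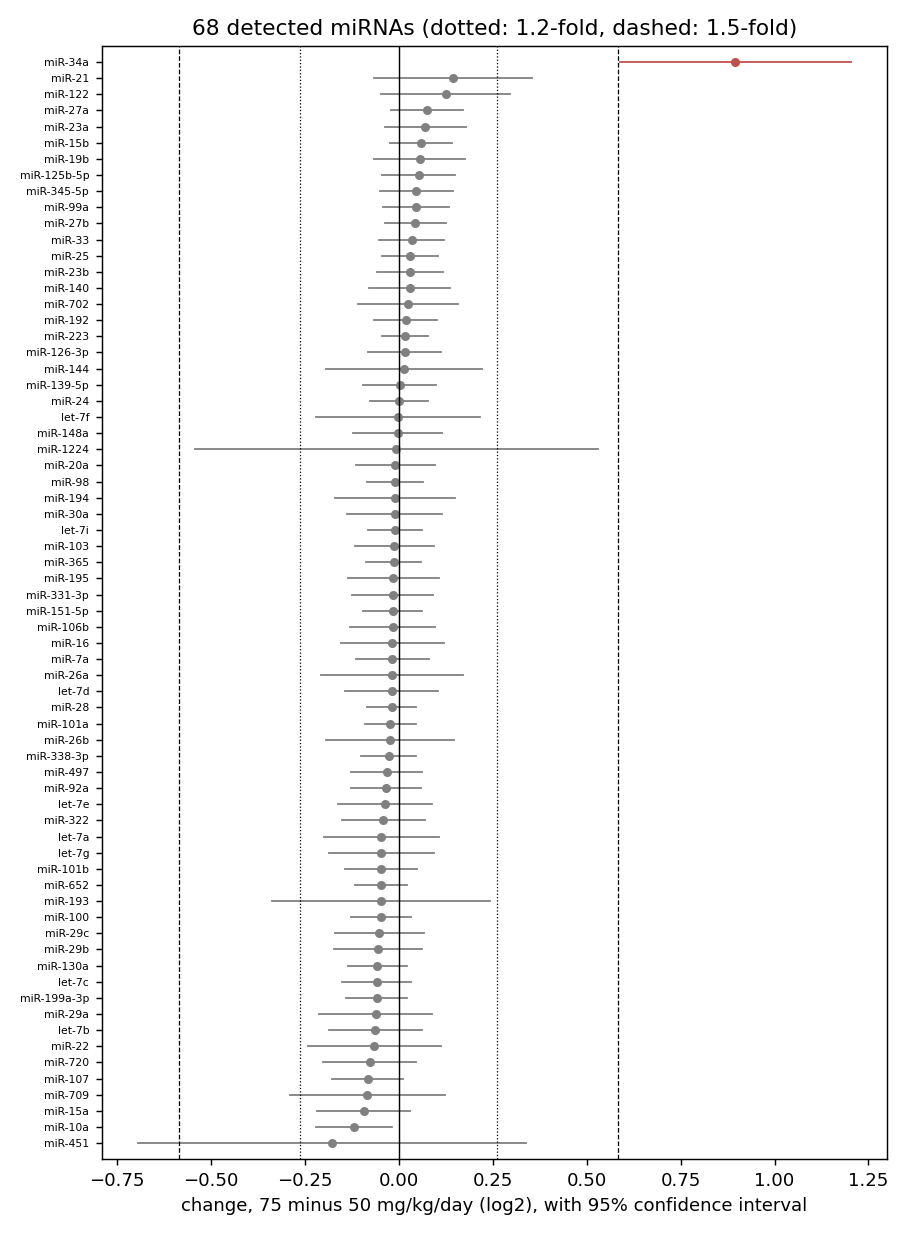
Log2 change from 50 to 75 mg/kg/day (x axis) of each of the 68 detected miRNAs (y axis, ranked), with 95% confidence intervals from limma. miR-34a (red, 0.90) stands apart, and the other 67 points lie inside the dotted lines of 1.2-fold.

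Dose took 88.9% of the variance of miR-34a over the 10 arrays and slide took 2.43%. For the other 67 miRNAs the median share was 1.85% for dose and 77.5% for slide, and 62 of them varied more between slides than between doses. After slide means were removed, dose held 36.7% of the variance summed over the 68 miRNAs, but 10.5% without miR-34a. Dose is 1 of the 7 within-slide degrees of freedom (14.3%). These shares are descriptions, with no test.

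Next to miR-34a, miR-10a, which lies in a Hox gene cluster, was the only miRNA with an unadjusted P under 0.05 (2 of 68 with miR-34a, 2.94%). It was 6.82, 6.67, 6.85, 6.90 and 6.90 at 50 mg/kg/day and 6.56, 6.55, 6.85, 6.84 and 6.75 at 75 mg/kg/day. The groups overlapped, and the values at 75 mg/kg/day lay lower than those of the other dose mainly on slides 1 and 3. Its log2 change was -0.12 ± 0.05 (SE), with a limma FDR-adjusted P of 0.869.

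miR-21 showed how far slide outweighed dose. Its log2 signal was 10.27 and 10.36 on slide 1, 8.92 and 8.58 on slide 2 and 8.68 on slide 3 at 50 mg/kg/day. At 75 mg/kg/day it was 10.34 and 10.57, 8.92 and 8.87, and 8.83. The doses overlapped on slides 1 and 2. The within-slide differences were close to each other (0.14, 0.15 and 0.15), while slide took 97.7% of its variance. The log2 change of 0.15 ± 0.10 (SE) had a limma FDR-adjusted P of 0.919.

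miR-23a was the one miRNA besides miR-34a whose arrays at 75 mg/kg/day lay above those at 50 mg/kg/day on each slide (2 of 68, 2.94%, with none the other way). Its within-slide differences were 0.12, 0.05 and 0.02, and its log2 change was 0.07 ± 0.05 (SE, limma FDR-adjusted P = 0.919). The exact two-sided permutation P of miR-23a was 0.0278 within slides and 0.413 over all splits of the 10 arrays. One of its 2 probes gave a change of 0.12 and the other 0.02. Over the 68 miRNAs, 8 (11.8%) were higher and 7 (10.3%) lower at 75 mg/kg/day on all 3 slides.

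**Figure D4:**
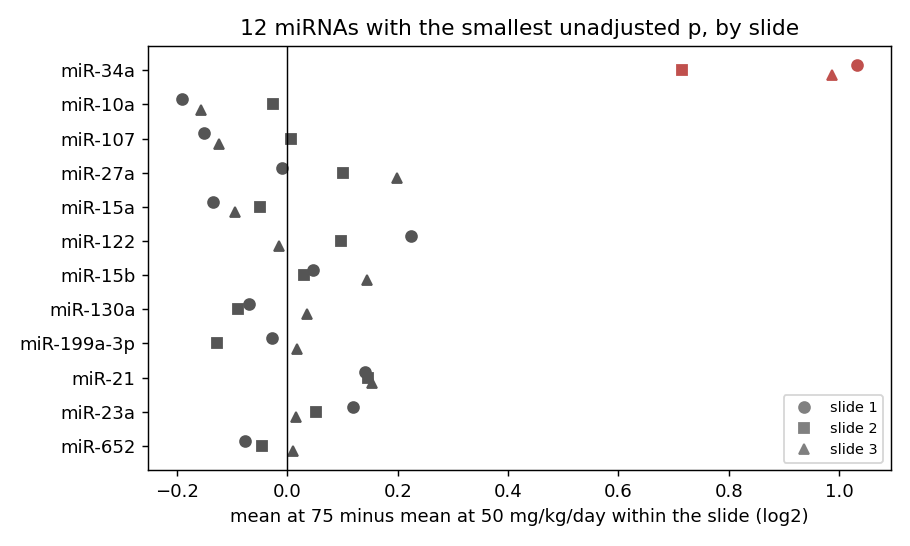
Mean at 75 minus mean at 50 mg/kg/day within each slide (log2, x axis) for the 12 miRNAs with the smallest unadjusted P (y axis); symbols give the slide. The 3 values of miR-34a lie between 0.71 and 1.03, and those of the other 11 between -0.19 and 0.22.

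The remaining miRNAs among the 12 of smallest P had log2 changes between -0.09 (miR-15a) and 0.13 (miR-122, the main miRNA of hepatocytes), each with a limma FDR-adjusted P of 0.919. Whether the array separates close relatives among them was not tested. miR-107 and miR-103 share 22 of 23 bases and had changes of -0.08 and -0.01. miR-27a and miR-27b share 20 of 21 bases and had changes of 0.08 and 0.04.

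In the miR-34 family, miR-34a was the only tested member of 5. miR-34b-5p, miR-34b-3p, miR-34c and miR-34c* met the presence criterion on none of the 10 arrays, so only miR-34a had a measured change. Of 10 other miRNAs tied to p53 by transcription or maturation, 6 were tested and none passed, with 1 higher and 5 lower and a median of -0.04. Among them miR-192 (0.02) and miR-194 (-0.01), which are made from shared transcripts in liver and gut, were near 0, as was miR-16 (-0.02). Further below 0 were miR-22 (-0.06), miR-107 (-0.08) and miR-15a (-0.09). miR-215, miR-143, miR-145 and miR-200c were present on none of the 10 arrays.

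Larger families moved little and none of their members passed the test. All 9 let-7 miRNAs, which hold back growth genes, had changes below 0 (median -0.04, from -0.06 to -0.002), beside 46 of 68 over all miRNAs. After quantile normalisation 6 of 9 did so, beside 34 of 68, and in the total gene signal 1 of 9, beside 19 of 68. In the processed signal the count was 9 of 9, beside 45 of 68. In the values the authors deposited it was 8 of 9, beside 55 of 68. After normexp correction it was 7 of 9, beside 40 of 68, and with array medians centred 6 of 9, beside 37 of 68. The 3 miR-29 miRNAs, which act on collagen messages, had a median of -0.06. All 3 lay below 0 as reported, with array medians centred, after normexp correction, in the processed signal and in the authors' values. The number below 0 was 1 of 3 after quantile normalisation and 0 of 3 in the total gene signal. The 5 miRNAs of the miR-23/27/24 clusters lay above 0 (median 0.04, from 0.002 to 0.08), beside 22 of 68 over all miRNAs. All 5 also did so with array medians centred, after normexp correction and in the total gene signal. The number above 0 was 3 of 5 after quantile normalisation and in the processed signal, and 2 of 5 in the authors' values. In the miR-15/16 family 1 of 6 was higher and 5 were lower, with a median of -0.02. In the miR-17-92 and miR-106b-25 clusters, which promote proliferation, 5 of 9 members were tested, with 2 higher, 3 lower and a median of -0.01.

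**Figure D5:**
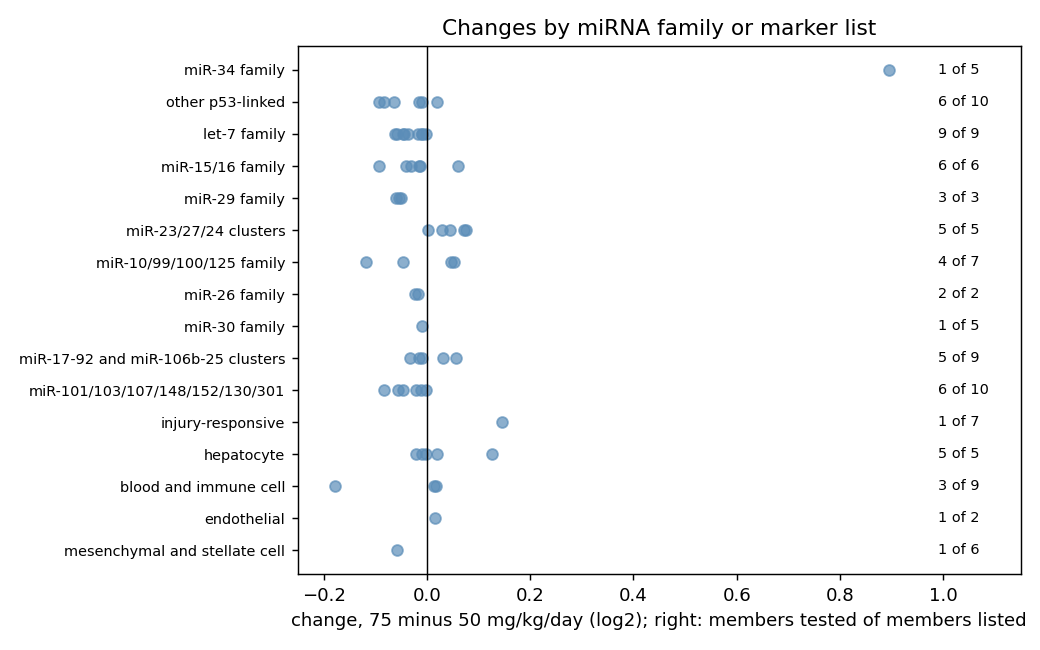
Log2 change from 50 to 75 mg/kg/day (x axis) of the tested members of each family or marker list (y axis), with the number tested of the number listed at the right. The tested member of the miR-34 family lies at 0.90, and members of the other lists lie between -0.18 and 0.15.

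Markers of hepatocytes were present on all 10 arrays, as the liver label implies. All 5 (miR-122, miR-192, miR-194, miR-148a and miR-101a) were tested, with 2 higher, 3 lower, a median of -0.002 and a summed log2 signal of 13.45 to 13.70 at 50 mg/kg/day and 13.56 to 13.93 at 75 mg/kg/day. The sum was taken over linear signal and was mostly that of miR-122, so it is not a separate measure of the other markers. miR-122 itself was 13.33, 13.51, 13.48, 13.49 and 13.60 at the lower dose and 13.45, 13.84, 13.57, 13.59 and 13.58 at the higher dose. Its ranges overlapped.

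Of 9 blood and immune cell markers 3 were tested, and 4 (miR-150, miR-142-5p, miR-155 and miR-181a) were present on none of the 10 arrays. For the red blood cell miRNAs miR-451 and miR-144, the sign of the difference between doses was not the same on all slides. Slide took 46.4% and 62.9% of their variance. Within slides 1, 2 and 3 the difference of miR-451 was 0.38, -0.95 and 0.25, and that of miR-144 was 0.21, -0.25 and 0.15. On slide 2 miR-451 was 9.14 and 9.11 at 50 mg/kg/day, and 8.61 and 7.74 at 75 mg/kg/day. A relation between blood content and the miR-34a signal was not tested. The summed log2 signal of the tested blood markers was 9.03 to 9.84 at 50 mg/kg/day and 8.48 to 10.23 at 75 mg/kg/day. Its largest part was miR-451. Endothelial miR-126-3p (0.02) and miR-199a-3p of mesenchymal cells (-0.06) did not pass the test, and each was the only tested marker of its list. The other endothelial marker and the other 5 of 6 mesenchymal markers were present on none of the 10 arrays. No muscle, neural or pancreatic marker was tested. miR-1 and miR-133b of muscle were present on 1 array at 50 mg/kg/day, and all 6 neural and pancreatic markers were present on none.

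Presence itself differed little between the doses. Of the 68 miRNAs, 62 met the criterion (at least 4 of 5 arrays) at both doses and 49 were present on all 10 arrays. miR-702 met it at 75 mg/kg/day alone (4 arrays against 2). miR-100, miR-25 and miR-331-3p (2 arrays against 4) and miR-125b-5p (3 against 5) met it at 50 mg/kg/day alone. The log2 changes of these 5 lay between -0.05 and 0.05 in the signal without background subtraction. In the processed signal miR-100 had the lowest change of the 67 (-0.33) and miR-702 the highest (0.21). Neither passed the test there (limma FDR-adjusted P = 0.991 for each).

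The step from 50 to 75 mg/kg/day was set against the step below it, from 25 to 50 mg/kg/day, and both use the arrays at 50 mg/kg/day. miR-34a was 6.00, 5.79, 6.43, 6.90 and 6.54 at 25 mg/kg/day, and 5.64, 5.89 and 6.23 in the vehicle animals, where it was present on 2 of 3 arrays. At 25 mg/kg/day, probe A_54_P2498 was below the presence criterion on replicates 2 to 5 and A_54_P2499 on replicate 5. The lower step was 0.74 ± 0.16 (SE, limma FDR-adjusted P = 0.0221) beside 0.90 ± 0.14 for the upper. Unlike the upper step, the lower was not balanced over slides, with 0 arrays at 25 mg/kg/day on slide 2 and 3 on slide 3. The steps differed by 0.16 ± 0.26 (SE; 95% confidence interval -0.39 to 0.71), which did not pass the test (limma FDR-adjusted P = 0.936), and the interval leaves room for either step to be the larger. The sign of the difference turned in the processed and total gene signals but not after normexp correction (0.27). No miRNA passed the test of a difference between the steps, with 4 of 68 (5.88%) at an unadjusted P under 0.05. These were miR-27b, miR-107, miR-125b-5p and miR-29c.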

How the data were processed

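The authors labelled total RNA with cyanine 3, hybridised it to 1-colour Agilent mouse miRNA arrays and read the images with Agilent Feature Extraction 10.7.3.1, per the submitters' processing notes. The deposited scanner files hold linear spot intensity with no normalisation across arrays. The authors also deposited a table of log2 values by miRNA name, used as an alternative only. Its scale was read from correlations of 0.990 to 1.000 with the log2 median signal of the same arrays, and its column medians were 5.74 to 5.76. How it was centred is not known here.

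As in the methods of the study, log2 median signal without background subtraction was normalised by cyclic loess, spots of a probe were reduced to their median, and slide was a block. Here, outlier spots were left out and the present probes of a name were averaged. Presence on an array required the scanner's well-above-background flag on a share of 0.5 or more of the spots, and probes were kept if present on a share of 0.8 or more of the arrays in any dose group. This gave 109 probes of 68 mouse names. limma 3.58.1 in R 4.3.3 was fitted to all 18 arrays, two-sided, with Benjamini-Hochberg (FDR) adjustment over all names and a threshold of 0.05. The number of arrays limits the precision. The fit was also run on simulated data with known changes. Those changes were larger than that of any miRNA but miR-34a in the signal without background subtraction. The simulation therefore does not bear on changes so small. No pair of arrays was alike (at most 8.75% of spots equal).

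The miRNAs named were miR-34a and its family, miR-122, the 12 names of smallest unadjusted P and members of fixed lists. They and the lists were chosen with earlier results of these data known. Alternatives were other normalisations, background corrections, signals, filters, treatments of slide, and each array left out.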

Additional observations from a re-analysis of the deposited data

How the results depend on the processing

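The number of miRNAs past the threshold was 1 under 19 of 20 alternatives and 0 in the total gene signal over 18 arrays (limma, 4 at an unadjusted P under 0.05). There miR-34a was 1.46 with a limma FDR-adjusted P of 0.0565. Under the other settings it kept its direction, from 0.71 within slide 2 upwards, and leaving out each of the 18 arrays gave 0.79 to 0.99 (limma FDR-adjusted P from 0.000279 to 0.00575) and 1 to 1 miRNAs. The probe count was 2 under each alternative run, and the count for the difference of the steps 0. The step difference of miR-34a was 0.59 with the slide column as a covariate, turned to -0.41 in the processed signal, -0.52 in the total gene signal and, with single arrays left out, ranged from -0.11 (without the fifth array at 50 mg/kg/day, where it turned) to 0.36. In the total gene signal, with 18 or with 10 arrays, miR-107 turned to 0.00597, miR-130a to 0.0267 and miR-652 to 0.0147. miR-15a turned to 0.0244 after quantile normalisation, and miR-122 to -0.0097 in the table the authors deposited and to -0.12 with the slide column as a covariate. The causes were not tested. The column, local background and 10-array total gene signal settings were chosen after seeing the data. No paired analysis was possible because no label numbers the replicates. Of the 498 mouse names left out as too dim, 452 were present on none of the 10 arrays, and their signals bound a level only from above. With no filter, miR-34a was the 1 name of 566 past the threshold.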
